A study of Homo sapiens with 30 samples.

Results

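The Polo-like kinases are serine/threonine kinases that share a C-terminal polo-box domain, and PLK1, PLK2, PLK3 and PLK4 are the 4 members described here, of 12690 genes on the array. Each was taken from the probe sets that the platform annotation assigns to that symbol alone. Each symbol had 1 such probe set, so no choice between probe sets was needed. PLK1, PLK2 and PLK3 were among the 7614 genes bright enough to be tested, and PLK4 was not. RNA from 3 human carcinoma cell lines was hybridised to a custom Affymetrix array, with 30 arrays in all. Hypoxia was oxygen below 0.01% for monolayer cultures held in an anoxic incubator.

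RCC4, a renal carcinoma line, was used without VHL (VHL-null) and with wild-type VHL reintroduced (VHL-restored). VHL is part of a ubiquitin ligase through which HIF transcription factors are destroyed when oxygen is present. The RCC4 arrays of each genotype cover hypoxia for 0, 1, 2, 4, 6 and 18 h, then 1 h or 4 h back in oxygen following the longest exposure. H1299, a non-small cell lung cancer line, was used as p53-null cells and with p53 reintroduced (labelled p53 wild type), each at 24 h of hypoxia and at 0 h. HCT116, a colon carcinoma line, came with p53 absent (p53-null) or wild type, at 0, 12 and 24 h. VHL-null and VHL-restored RCC4 at 18 h and at 0 h had 2 arrays each, from replicates that the design text calls independent, and every other group had 1. The labels name no separate clones of any genotype, so a genotype effect cannot be told apart from other differences between the cells that carry it.

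Polo-like kinases act at set points of cell division. PLK1 drives entry into mitosis, spindle assembly and cytokinesis, and its transcript is highest in G2 and M phase. PLK4 starts centriole duplication. PLK2 and PLK3 were first described as early response genes of growth factor and stress signalling, and PLK2 is a known p53 target in other settings.

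On 18 arrays 5 control entries were left blank, and these arrays are called set 1. They are the H1299 and HCT116 arrays and, in RCC4, those at 2 h and 6 h with the first replicates at 18 h and 0 h. The remaining 12 arrays, set 2, are RCC4 at 1 h, 4 h and reoxygenation, with the second replicates at 18 h and 0 h. Null entries made up 18.4% to 40.4% of an array, lowest on VHL-null RCC4 at 0 h replicate 2 and highest on VHL-restored RCC4 at 4 h of reoxygenation. Of 3 renal markers, RCC4 arrays had 1 to 2 above the array median, and H1299 and HCT116 arrays each had 0 to 1. Summed intensity of the 3 renal markers was 450 to 799 on RCC4 arrays and 209 to 328 on H1299 and HCT116 arrays. Of 4 lung markers, 2 were above the array median in every line. Of 8 colon markers, 2 were in H1299 and HCT116 and 0 to 2 in RCC4. By this count the lung and colon lists do not separate the lines. The 5 endothelial markers had 3 above the median in every line, the 4 leukocyte markers 0 to 2 and the 6 fibroblast markers 1 to 3.

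The 2 libraries labelled H1299 p53 wild type went against their hypoxia labels. Of 20 hypoxia genes chosen after the values had been seen, 14 were tested. In H1299 p53-null cells 13 of the 14 were higher at 24 h than at 0 h, and in the HCT116 and RCC4 backgrounds 14 of 14 were higher late in hypoxia. Between the libraries labelled H1299 p53 wild type 0 of 14 were higher at 24 h, with a median log2 difference of -1.04. BNIP3, a hypoxia-induced mitophagy receptor, was listed at 5 in the library labelled 24 h and at 200 in the one labelled 0 h, whereas in p53-null cells it was listed at 203 at 24 h and was null at 0 h. The hypoxia and p53 results that use these 2 libraries are given with and without them, and the cause was not tested.

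The 250 bases before the annotated start of PLK1, PLK2 and PLK3 are shown because these genes differed in how they moved. They come from RefSeq on GRCh38.p14, are written 5′ to 3′ on the gene's strand, and have 2 motifs in capitals on either strand. These are ACGTG (reverse CACGT), the core of the hypoxia response element, and TTTGAA (reverse TTCAAA), the cell cycle genes homology region. CACGTG holds ACGTG on both strands, as 2 overlapping matches.
PLK1 (chr16:23678639-23678888, plus strand): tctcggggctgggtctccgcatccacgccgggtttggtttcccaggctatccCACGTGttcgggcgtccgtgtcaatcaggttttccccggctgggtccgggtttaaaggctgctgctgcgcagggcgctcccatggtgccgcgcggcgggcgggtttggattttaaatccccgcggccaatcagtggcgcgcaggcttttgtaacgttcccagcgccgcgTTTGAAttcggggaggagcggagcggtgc
PLK2 (chr5:58460087-58460336, minus strand): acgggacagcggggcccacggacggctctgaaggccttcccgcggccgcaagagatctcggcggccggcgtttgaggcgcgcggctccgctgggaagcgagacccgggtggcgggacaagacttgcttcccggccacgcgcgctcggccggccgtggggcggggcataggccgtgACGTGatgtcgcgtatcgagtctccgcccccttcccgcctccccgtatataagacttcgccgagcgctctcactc
PLK3 (chr1:44800127-44800376, plus strand): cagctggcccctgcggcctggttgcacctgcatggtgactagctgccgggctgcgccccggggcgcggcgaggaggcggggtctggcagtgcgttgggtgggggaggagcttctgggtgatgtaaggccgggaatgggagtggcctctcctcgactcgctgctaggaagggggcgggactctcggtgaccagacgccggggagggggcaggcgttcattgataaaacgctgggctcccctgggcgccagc

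PLK1 held TTTGAA once, starting 29 bases before the start, and the CACGTG palindrome starting 198 bases before it. PLK2 held ACGTG once, starting 75 bases before the start, and PLK3 held neither motif in this window. Of 35116 promoter windows of the same 250 bases, 18.5% held ACGTG and 13.3% held TTTGAA on either strand. The matches are a description of letters. The windows of PLK1, PLK2 and PLK3 were matched by symbol. The PLK4 window is not shown because PLK4 was too dim for any comparison.

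PLK1 (probe set EOS01922; chromosome 16, 23678889 to 23690367 on GRCh38.p14) was listed on all 30 arrays, at 24 to 322 intensity units with a median of 134.5. PLK2 (EOS31994; chromosome 5, 58453982 to 58460086) ranged from 0 to 1059, and PLK3 (EOS02465; chromosome 1, 44800377 to 44805990) from 597 to 874. PLK4 (EOS31375; chromosome 4, 127880893 to 127899224) was null on 28 of 30 arrays. It was listed at 40 on VHL-null RCC4 at 0 h replicate 2, the array with the lowest share of null entries, and at 13 on VHL-null RCC4 at 4 h of reoxygenation. PLK4 fell below the filter on dim genes, and no comparison of it is made. The value scale differs from probe set to probe set, so the levels of these genes are not set against one another.

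PLK1 fell with 18 h of hypoxia in both RCC4 genotypes. In VHL-null cells it was listed at 99 and 128 at 18 h, against 218 and 322 at 0 h. In VHL-restored cells it was listed at 108 and 185 at 18 h, against 283 and 319 at 0 h. In each genotype both hypoxic arrays lay below both arrays in oxygen. The share of all tested genes that separate in this way was not counted. On the log2(intensity + 16) scale, relative to the array median, the 18 h difference was -1.09 in VHL-null cells (2.13-fold lower, SE 0.202, n = 2 arrays each, limma adjusted p = 1). In VHL-restored cells it was -0.96 (1.94-fold lower, SE 0.202, n = 2 each, limma adjusted p = 0.404). Across the tested genes, replicate numbers 1 and 2 marked a shift shared by the groups, with correlations of 0.794 to 0.916. For PLK1, replicate 2 minus replicate 1 was -0.22 at 0 h and -0.28 at 18 h in VHL-null cells. In VHL-restored cells it was -0.36 at 0 h and 0.19 at 18 h, so the PLK1 shift changed sign between groups. With the replicate number fitted as a block, the limma adjusted p was 0.000226 in VHL-null and 8.18e-05 in VHL-restored cells (SE 0.120). limma draws each gene's spread toward that of the other tested genes, so with this block the SE is not from PLK1 alone. The calls below rest on that block: of the tested genes, 0.21% were called lower and 0.276% higher with it in VHL-null cells, and 2.88% lower and 3.7% higher in VHL-restored cells. Without the block limma called 0% lower in either, with 18 and 54 genes lower at an unadjusted p under 0.05. PLK1 had the most negative difference of the 7614 tested genes in VHL-null cells and the 11th most negative in VHL-restored cells. In these bulk samples fewer cells of a type and less RNA per cell cannot be told apart.

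Within the array sets the PLK1 difference at 18 h was -1.06 in set 1 and -1.12 in set 2 in VHL-null cells, and -1.23 in set 1 and -0.68 in set 2 in VHL-restored cells. The difference between the genotypes' changes was -0.13 (SE 0.285 without the block, limma adjusted p = 1, and SE 0.170 with the block, adjusted p = 1.00), and it was not called, with 0.565% of genes called with the block. The VHL genotypes themselves differed in PLK1 by -0.36 at 18 h (blocked SE 0.120, limma adjusted p = 0.0849) and by -0.23 at 0 h (blocked adjusted p = 0.38). Neither was called, where the block called 3.97% of genes lower at 18 h.

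**Figure D1:**
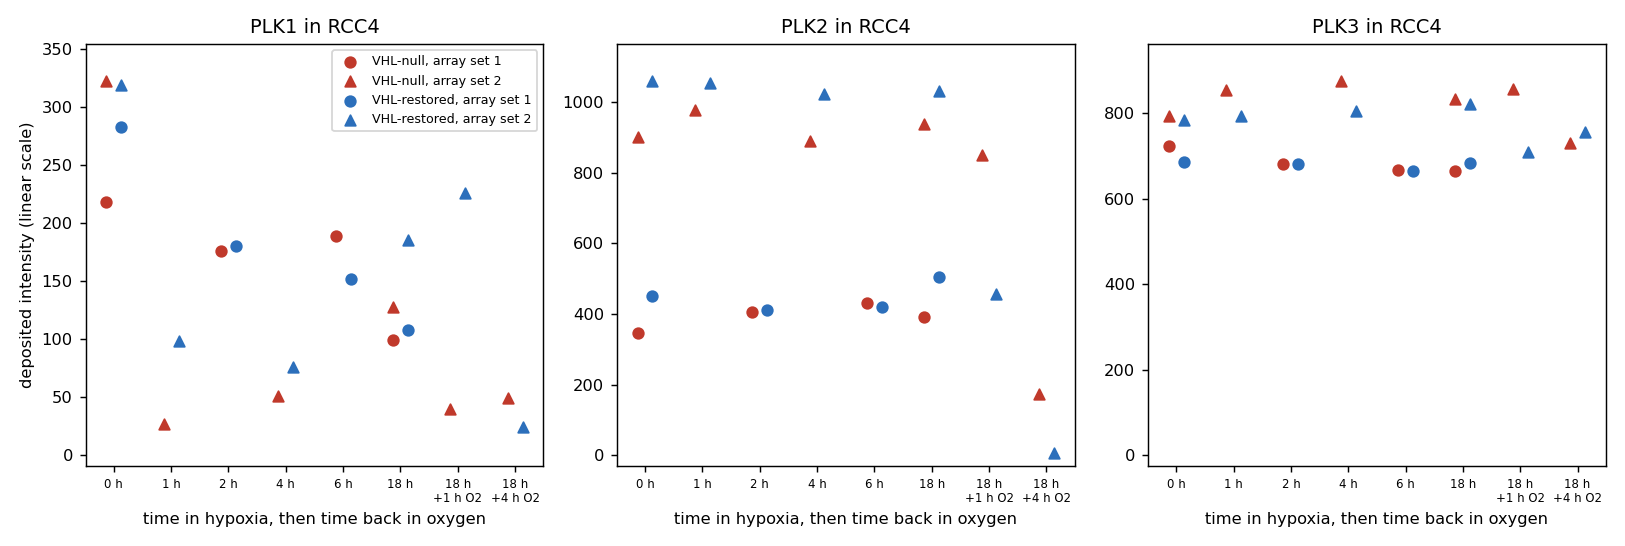
Deposited intensity of PLK1, PLK2 and PLK3 (linear scale) on each of the 20 RCC4 arrays, by hours of hypoxia and then hours back in oxygen, with colour for genotype and marker shape for array set. PLK1 sits between 24 and 98 on the arrays at 1 h and 4 h of hypoxia and at 4 h of reoxygenation, PLK2 drops to 174 and 6 at 4 h of reoxygenation, and PLK3 stays between 664 and 874.

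Along the RCC4 time course PLK1 was lowest in hypoxia at 1 h and 4 h. In VHL-null cells it was listed at 218 and 322 at 0 h, 27 at 1 h, 176 at 2 h, 51 at 4 h, 189 at 6 h and 99 and 128 at 18 h. In VHL-restored cells it was listed at 283 and 319 at 0 h, 98 at 1 h, 180 at 2 h, 76 at 4 h, 152 at 6 h and 108 and 185 at 18 h. The arrays at 1 h and 4 h are in set 2 and those at 2 h and 6 h are in set 1. Between 1 h or 4 h and 2 h or 6 h, the listed values do not tell hypoxia time apart from array set. The 0 h and 18 h arrays lie in both sets, so each time can be set against 0 h of its own set. In both genotypes every hypoxic array lay below the 0 h arrays of that genotype, and the share of all tested genes that do so was not counted.

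Over all 20 RCC4 arrays, with terms for genotype, state and array set, PLK1 differed from 0 h by -2.12 at 1 h (4.36-fold lower, SE 0.415, 1 array per genotype, limma adjusted p = 0.0114). At 4 h it differed by -1.98 (3.94-fold lower, SE 0.415, adjusted p = 0.00696). Both were the most negative differences of the 7614 tested genes in their comparison, and the share of genes called lower was 1.18% at 1 h and 3.45% at 4 h. In array set 2 alone the 1 h difference was -2.06 and was no longer called (adjusted p = 0.0555, with 0.538% of genes called lower), while at 4 h it was -1.92 (adjusted p = 0.0351, with 2.32% called lower). The differences at 2 h (-0.37, SE 0.415, adjusted p = 0.997), at 6 h (-0.45, adjusted p = 0.999) and at 18 h (-1.02, SE 0.314, adjusted p = 0.0942) were not called, where 0.144%, 0% and 1.18% of genes were called lower. These comparisons share the 0 h arrays. By genotype within the set, the 1 h difference was -2.69 in VHL-null and -1.43 in VHL-restored cells, and the 4 h difference was -2.10 in VHL-null and -1.74 in VHL-restored cells. Each rests on 1 array against 1.

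Some mitotic partners of PLK1 were also lower at those times. The list, chosen with earlier results of these data known, holds 30 genes, of which 23 were on the array and 13 were tested. At 1 h 4 of 13 were called lower and 0 higher, and 1 of 13 was positive, with a median log2 difference of -0.38 against 0.06 over all tested genes. CCNB1, the cyclin that activates CDK1 at mitotic entry, fell by 1.22 (SE 0.234, limma adjusted p = 0.0106) and KIF20A, a kinesin that recruits PLK1 to the central spindle, by 1.05 (adjusted p = 0.00494). UBE2C, a ubiquitin-conjugating enzyme of the anaphase-promoting complex, fell by 0.55 (adjusted p = 0.0081) and PTTG1, securin, by 0.57 (adjusted p = 0.0148). At 4 h 5 of 13 were called lower and 0 higher, again with 1 of 13 positive, and with KIF20A at -1.37 (adjusted p = 0.000269) and CCNB1 at -1.18 (adjusted p = 0.0051). At 2 h and at 6 h, on set 1 arrays, 0 of 13 were called in either direction, where 0.144% and 0% of all tested genes were called.

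At 18 h, with the replicate block, 1 of 13 mitotic genes was called lower in VHL-null cells and 6 in VHL-restored cells, and 0 were called higher in either. Of all tested genes the block called 0.21% lower in VHL-null and 2.88% in VHL-restored cells. In VHL-null cells it was CCNB1, at -0.69 (SE 0.104, limma adjusted p = 0.00344), and the list median was -0.19 against 0.02 over all tested genes. In VHL-restored cells CCNB1 fell by 0.80 (adjusted p = 0.000104), KIF20A by 0.84 (adjusted p = 0.000201), PTTG1 by 0.52 (adjusted p = 0.00851) and UBE2C by 0.42 (adjusted p = 0.0148), and the list median was -0.37 against 0.05. Between the genotypes at 18 h, where the block called 3.62% of genes higher, 4 of the 13 were higher in VHL-null cells, namely KIF20A at 0.76 (adjusted p = 0.000521), PTTG1 at 0.51 (adjusted p = 0.00879), FOXM1, a transcription factor of G2 genes, at 0.49 (adjusted p = 0.0101) and KIF2C, a microtubule depolymerase, at 0.51 (adjusted p = 0.0396). PLK1 was not among them.

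Targets of p53 and stress genes differed in the other direction at the same times. Of 14 tested p53 targets, 10 were called higher at 1 h, 14 at 4 h and 6 at 18 h, and 0 at 2 h and 6 h. The share of all tested genes called higher was 2.43% at 1 h, 7.18% at 4 h and 1.77% at 18 h. At 2 h and 6 h 0% of all tested genes were called higher, so the 0 there is not particular to p53 targets. CDKN1A, the CDK inhibitor p21, rose by 1.76 at 1 h (SE 0.195, limma adjusted p = 0.000235) and by 1.90 at 4 h (adjusted p = 8.43e-05). Of 14 tested immediate early and stress genes, 4 were higher at 1 h and 5 at 4 h. ATF3, a stress-induced transcription factor, rose by 2.19 at 1 h (adjusted p = 8.62e-05) and by 2.44 at 4 h (adjusted p = 1.97e-05). PLK2 and PLK3, which are in neither list, were not called at either time, and PLK2 differed by 0.28 at 1 h (SE 0.505, adjusted p = 0.775) and by 0.17 at 4 h (adjusted p = 0.87).

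PLK1 was lower in hypoxic HCT116 cells of both p53 genotypes. In p53-null cells it was listed at 275 at 0 h, 139 at 12 h and 104 at 24 h. In p53 wild-type cells it was listed at 252 at 0 h, 130 at 12 h and 73 at 24 h. In both genotypes it was lower at each later time. Over both hypoxic times, with genotype as a term, the difference from 0 h was -1.15 (2.22-fold lower, SE 0.0889, 6 arrays, limma adjusted p = 0.0118), and 0.972% of tested genes were called lower. With all 12690 genes kept the adjusted p was 0.0892. Among the 13 mitotic genes 2 were called lower, KIF20A at -1.74 (SE 0.253, adjusted p = 0.0488) and CDC25B, a phosphatase that activates CDK1, at -0.51 (adjusted p = 0.0499). The 13 had a median of -0.50 against 0.04 over all tested genes, and 0 were positive.

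In H1299 p53-null cells PLK1 was listed at 106 at 24 h, against 303 at 0 h. The library labelled H1299 p53 wild type at 24 h was listed at 256, against 90 in the library labelled 0 h. The 2 pairs run in opposite directions, at -1.37 in p53-null and 1.36 in the libraries labelled p53 wild type, each 1 array against 1. CCNB1 ran the same way as PLK1 in both, with 107 at 24 h against 345 at 0 h in p53-null cells and 340 in the library labelled 24 h against 122 in the one labelled 0 h.

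Over H1299 and HCT116 together the 24 h difference in PLK1 was -0.72 (SE 0.524, 4 pairs of arrays, limma adjusted p = 0.656). It was not called, and 0 genes passed in limma, with 427 at an unadjusted p under 0.05. Without the 2 libraries labelled H1299 p53 wild type it was -1.41 (2.65-fold lower, SE 0.0802, 3 pairs, limma adjusted p = 0.0405), and 0.0263% of tested genes were called lower. In HCT116 alone it was -1.42 (SE 0.112, adjusted p = 0.0251), with 0.709% called lower. The difference of the 24 h changes between p53-null and p53 wild-type cells was -1.23 (SE 1.01, adjusted p = 0.869), and was not called. It was -2.73 in H1299 and 0.27 in HCT116 alone, of opposite sign, each from single arrays with no test.

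**Figure D2:**
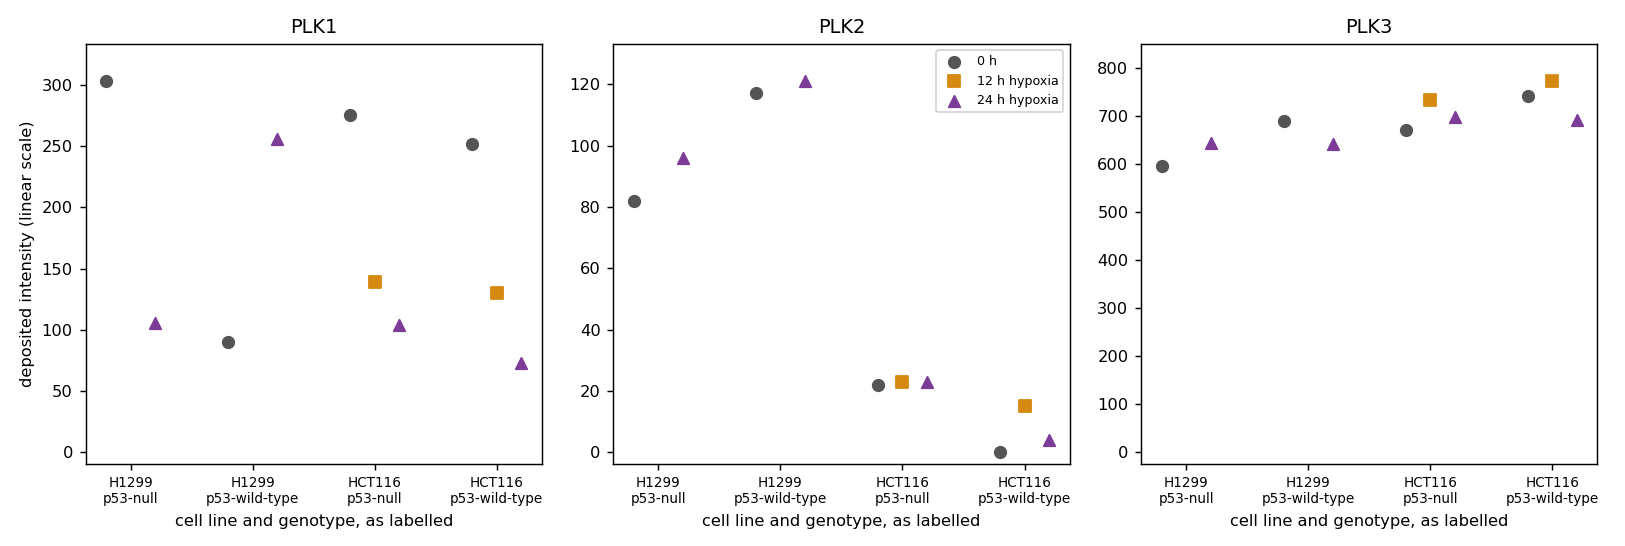
Deposited intensity of PLK1, PLK2 and PLK3 (linear scale) on each H1299 and HCT116 array, by line and p53 genotype as labelled, with marker and colour for hours of hypoxia. PLK1 is lower at 24 h than at 0 h in every background except the libraries labelled H1299 p53 wild type, PLK2 is at 23 or below in HCT116 and 82 or above in H1299, and PLK3 lies between 597 and 773.

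Late hypoxia, 18 h in RCC4 and 24 h in the other lines, was compared over 6 backgrounds. PLK1 differed by -1.09 in RCC4 VHL-null, -0.96 in RCC4 VHL-restored, -1.37 in H1299 p53-null, 1.36 in the libraries labelled H1299 p53 wild type, -1.29 in HCT116 p53-null and -1.56 in HCT116 p53 wild type. It was lower in 5 of 6 backgrounds, and the share of all tested genes that were so was not counted. The mean difference was -0.82 (SE 0.368, limma adjusted p = 0.407) and was not called, and 0 genes passed in limma, with 925 at an unadjusted p under 0.05. Without the H1299 p53 wild-type background it was -1.25 (2.38-fold lower, SE 0.0903, 5 backgrounds, limma adjusted p = 0.0397), with 0.0657% of tested genes called lower. Of the 13 mitotic genes 0 were positive and 0 were called over the 6 backgrounds, with a median of -0.30 against 0.03 over all tested genes. Without the H1299 p53 wild-type background the median was -0.46 against 0.03, again with 0 positive and 0 called. These values share arrays with the fits above.

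**Figure D3:**
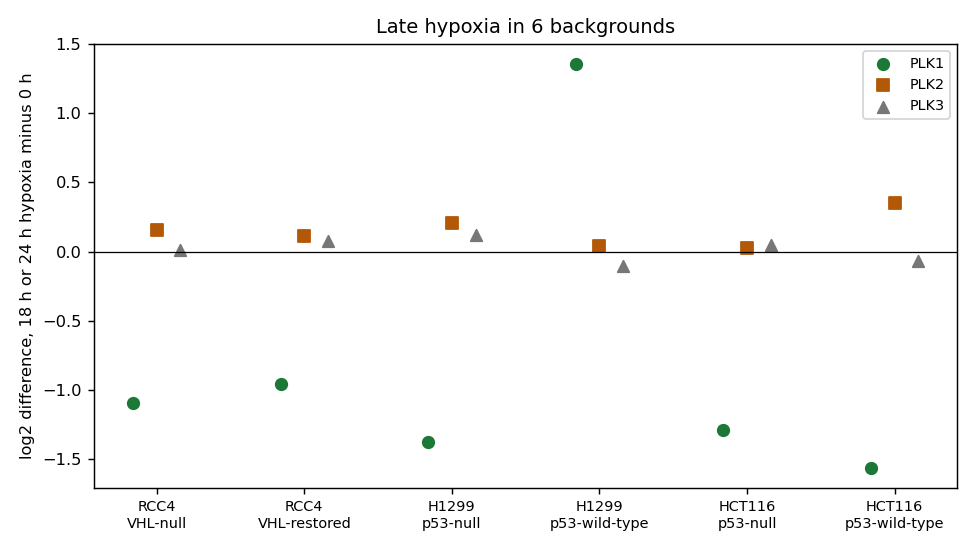
Difference between 18 h or 24 h of hypoxia and 0 h, on the log2(intensity + 16) scale relative to the array median, for PLK1, PLK2 and PLK3 in 6 backgrounds; an RCC4 point is the mean of 2 replicates and the others are 1 array against 1. PLK1 lies between -1.56 and -0.96 in 5 backgrounds and at 1.36 in the libraries labelled H1299 p53 wild type, while PLK2 and PLK3 lie between -0.10 and 0.35.

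PLK2 fell after 4 h of reoxygenation in RCC4. In VHL-null cells it was listed at 174 at 4 h and 851 at 1 h of reoxygenation, against 393 and 938 at 18 h of hypoxia. In VHL-restored cells it was listed at 6 at 4 h and 456 at 1 h of reoxygenation, against 506 and 1033 at 18 h. The reoxygenation arrays are in set 2, where the 18 h values were 938 and 1033, and the set 1 values of PLK2 in RCC4, at 346 to 506, lay below all set 2 values of hypoxic and 0 h arrays. At 4 h of reoxygenation both arrays lay below every other RCC4 array. The share of all tested genes that do so was not counted. The VHL-restored array at 4 h also had the highest share of null entries, 40.4%, and that share's part in the result was not tested.

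Against 18 h of hypoxia PLK2 differed by -3.75 at 4 h of reoxygenation (13.4-fold lower, SE 0.505, 1 array per genotype, limma adjusted p = 0.000805), the most negative of 7614 tested genes. The share of genes called lower was 1.68%. Without the VHL-restored array at 4 h of reoxygenation, the difference was -2.25 (4.75-fold lower). That leaves 1 array at this time, so no test of it is given. In array set 2 alone, with both genotypes, it was -3.73 (adjusted p = 0.023, with 0.919% called lower). By genotype within set 2 it was -2.16 in VHL-null cells, 1 array against 1. In VHL-restored cells the intensity of 6 lies below the pseudocount of 16, which sets the size of the difference: it was -6.41, -5.30 and -3.75 with pseudocounts of 4, 16 and 64. In VHL-null cells these were -2.22, -2.16 and -1.93, and in the fit over both genotypes -4.33, -3.75 and -2.86, called with each (adjusted p = 0.00278, 0.000805 and 7.29e-05). No interaction of genotype with reoxygenation was fitted, so whether the genotypes differ was not tested.

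At 1 h of reoxygenation the PLK2 difference from 18 h was -0.59 (SE 0.505, adjusted p = 0.985) and was not called, and 0 genes passed in limma, with 441 at an unadjusted p under 0.05. Within set 2 it was -0.08 in VHL-null and -1.06 in VHL-restored cells. At 4 h of reoxygenation PLK2 differed from 0 h by -3.62 (12.3-fold lower, SE 0.505, adjusted p = 0.000855), where 3.97% of genes were called lower. Without the VHL-restored array it was -2.12 (4.34-fold lower, 1 array left, no test given). This comparison shares the reoxygenation arrays with the one against 18 h.

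PLK1 at 4 h of reoxygenation was listed at 49 in VHL-null and 24 in VHL-restored cells, against 128 and 185 at 18 h in the same array set. Both arrays lay below the 18 h arrays of their genotype, and the share of all tested genes that do so was not counted. The difference from 18 h was -1.45 (SE 0.415, limma adjusted p = 0.0739) and was not called. From 0 h it was -2.48 (5.57-fold lower, SE 0.415, adjusted p = 0.00295). Without the VHL-restored array at 4 h of reoxygenation it was -1.95, with 1 array left and no test given, so the call rests on both arrays. At 1 h of reoxygenation PLK1 was listed at 40 in VHL-null and 226 in VHL-restored cells, with differences from 18 h within set 2 of -1.30 and 0.36, which run in opposite directions.

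Of the 13 mitotic genes, 6 were called lower at 4 h of reoxygenation against 0 h and 1 against 18 h, where 3.97% and 1.68% of all tested genes were called lower. The 1 was FBXO5, the inhibitor of the anaphase-promoting complex that PLK1 targets for destruction, which fell by 2.41 (SE 0.398, limma adjusted p = 0.00368). Without the VHL-restored array it fell by 1.25 (1 array left, no test given). Of 14 immediate early and stress genes 1 was called lower against 18 h, CCN1, a secreted matrix protein, at -1.45 (SE 0.129, adjusted p = 1.24e-05). Of 14 p53 targets 1 was called lower, SESN2, a stress-induced sestrin, at -1.05 (adjusted p = 0.000214), while 12 of 14 were positive with a median of 0.19 against 0.07 over all tested genes. Against 0 h 7 of the 14 were called higher and 1 lower, where 6.99% of all tested genes were called higher and 3.97% lower. The p53 target median against 0 h was 0.47, against 0.10 over all tested genes. Without the VHL-restored array these medians were 0.41 and 0.02. The counts of called genes at 4 h of reoxygenation rest on both arrays, and the VHL-restored one had the highest share of null entries. How far the counts depend on that array cannot be tested with 1 array left. Of 20 centriole genes chosen as PLK4 partners, 16 were on the array and 10 were tested. At 4 h of reoxygenation 1 of 10 was called higher, CEP57, a pericentriolar protein, at 0.63 (SE 0.108, adjusted p = 0.00458), and at 4 h of hypoxia it was the 1 called, at 0.52 (adjusted p = 0.00669). Of all tested genes 0.946% were called higher at 4 h of reoxygenation against 18 h. At 4 h of hypoxia 7.18% were, so the 1 of 10 there is near the share over all genes.

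PLK2 did not pass the test with hypoxia in any comparison. In VHL-null RCC4 it was listed at 393 and 938 at 18 h, against 346 and 901 at 0 h. In VHL-restored RCC4 it was listed at 506 and 1033 at 18 h, against 451 and 1059 at 0 h. The values of the 2 array sets lay far apart and those of the 2 times overlapped. The 18 h difference was 0.15 in VHL-null and 0.11 in VHL-restored cells (blocked SE 0.0967, limma adjusted p = 0.764 and 0.694). Over the 6 backgrounds the late difference was 0.15 (SE 0.0503, adjusted p = 0.396), positive in 6 of 6. Of all tested genes 61.9% had a mean difference above 0 in this comparison, and the share positive in 6 of 6 was not counted. The largest of the 6, 0.35 in HCT116 p53 wild-type cells, came from 0 and 4, both below the pseudocount. HCT116 p53-null cells gave 0.03, from 22 and 23. The libraries labelled H1299 p53 wild type, whose hypoxia genes went against their labels, gave 0.04. RCC4 VHL-null, RCC4 VHL-restored and H1299 p53-null gave 0.15, 0.11 and 0.21. Without the H1299 p53 wild-type background the late PLK2 difference was 0.17 (adjusted p = 0.186).

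PLK2 was lower in VHL-null than in VHL-restored RCC4 at 0 h and at 18 h, in both array sets. At 0 h the values in VHL-null cells were 346 in set 1 and 901 in set 2, against 451 and 1059 in VHL-restored cells. At 18 h they were 393 and 938 in VHL-null cells, against 506 and 1033 in VHL-restored cells. VHL-null was the lower in these 4 of 4 same-set pairs, but the higher at 6 h (431 against 421) and at 1 h (851 against 456) and 4 h (174 against 6) of reoxygenation. The log2 difference at 0 h was -0.35 (1.28-fold lower, SE 0.0967 with the replicate block, limma adjusted p = 0.0325), and 4.41% of genes were called lower with the block. Without the block the SE was 0.339 and the adjusted p was 1.00, and 0.0131% were called lower. At 18 h it was -0.31 (blocked SE 0.0967, adjusted p = 0.0627) and was not called.

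The lines differed in the level of PLK2. In RCC4, leaving aside 4 h of reoxygenation, all values lay at 346 or above. In H1299 PLK2 was listed at 96 at 24 h and 82 at 0 h in p53-null cells, and at 121 and 117 in the libraries labelled p53 wild type at 24 h and 0 h. In HCT116 p53-null cells it was listed at 22 at 0 h, 23 at 12 h and 23 at 24 h, and in p53 wild-type cells at 0, 15 and 4. The order was RCC4, H1299, HCT116, with no overlap between the lines apart from the RCC4 arrays at 4 h of reoxygenation. The order holds within set 1, where RCC4 lay between 346 and 506. No test between lines was made, and the share of all tested genes with no overlap between the lines was not counted.

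The p53-null minus p53 wild-type difference in PLK2 over both lines was 0.36 (SE 0.263, limma adjusted p = 0.812), and 0 genes passed in limma, with 526 at an unadjusted p under 0.05. In HCT116, where PLK2 was listed at 0 to 23 and so near or below the pseudocount of 16, it was positive at 3 of 3 times but its size was set by the pseudocount. It was 1.65, 0.85 and 0.31 with pseudocounts of 4, 16 and 64 (adjusted p = 0.568 at 16). In H1299 it was -0.36, lower in p53-null cells at both times. PLK1 differed by 0.22 (SE 0.342, adjusted p = 0.909) and PLK3 by -0.08 (SE 0.0483, adjusted p = 0.78). In HCT116 alone, without the H1299 libraries, PLK1 differed by 0.21 (adjusted p = 0.702) and PLK3 by -0.07 (adjusted p = 0.824). Of 14 tested p53 targets 0 were positive and 0 were called, with a median of -0.18 against 0.00 over all tested genes. In HCT116 alone 0 were positive and 0 called, with a median of -0.31.

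PLK3 moved least of the 3. In VHL-null RCC4 it was listed at 664 and 832 at 18 h, against 723 and 793 at 0 h. In VHL-restored RCC4 it was listed at 684 and 821 at 18 h, against 686 and 783 at 0 h. The times overlapped in both genotypes. Its 18 h difference was 0.01 in VHL-null and 0.08 in VHL-restored cells (SE 0.251, limma adjusted p = 1 and 1.00). Along the RCC4 time course the differences from 0 h were 0.21 at 1 h (SE 0.0949, adjusted p = 0.237), 0.02 at 2 h, 0.22 at 4 h (adjusted p = 0.161) and -0.03 at 6 h. At 4 h of reoxygenation PLK3 was listed at 730 in VHL-null and 756 in VHL-restored cells, and it differed from 18 h by 0.12 (SE 0.0949, adjusted p = 0.526). In HCT116 it was listed at 671, 733 and 698 at 0, 12 and 24 h in p53-null cells and at 741, 773 and 692 in p53 wild-type cells. It was called in 0 of the 19 comparisons, with differences between -0.08 and 0.22. Its small differences changed sign with the scaling in several comparisons, such as 4 h of reoxygenation against 18 h, at -0.12 with no centring. The share of tested genes called in either direction was 3.61% at 1 h, 0.144% at 2 h, 10.6% at 4 h, 0% at 6 h and 2.96% at 18 h of hypoxia in RCC4. It was 2.63% at 4 h of reoxygenation against 18 h, and 0.368% at 1 h and 11% at 4 h of reoxygenation against 0 h (0.0788% lower at 1 h). It was 2.31% in HCT116, 0.0394% at 18 h in VHL-restored RCC4 without the block, and 0.118% at 0 h and 0.0263% at 18 h between the VHL genotypes. In the other comparisons it was 0%.

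The genes most like each member were ranked by Pearson correlation over the 30 arrays, after subtracting the mean of each line, genotype and array set. The arrays share these 8 strata and the time series, and the coefficients are descriptions. PLK1 was most like CDCA8, borealin of the chromosomal passenger complex (0.884), PIMREG, a mitotic regulator (0.870), and CCNB1 (0.870). CDCA8 was listed at 472 in VHL-null and 250 in VHL-restored cells at 4 h of reoxygenation, against 642 and 539 at 18 h in set 2. Without the 2 arrays at 4 h of reoxygenation the PLK1 coefficients were 0.871, 0.867 and 0.853 over 28 arrays.

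PLK2 was most like CNOT4, a ubiquitin ligase of the CCR4-NOT complex (0.964), CLP1, a kinase of RNA ends in tRNA splicing (0.963), and PALB2, the partner of BRCA2 (0.946). Without the arrays at 4 h of reoxygenation they were 0.797, 0.782 and 0.813. CNOT4 was listed at 79 in VHL-null and 23 in VHL-restored cells at 4 h of reoxygenation, against 197 and 253 at 18 h in set 2. CLP1 was listed at 115 in VHL-null cells and was null in VHL-restored cells, against 341 and 233 at 18 h. PALB2 was listed at 138 in VHL-null cells and was null in VHL-restored cells, against 212 and 210 at 18 h. All 3 were at their lowest of the set 2 arrays plotted at 4 h of reoxygenation in VHL-restored cells. They were picked for likeness to PLK2 over arrays that include these, so a shared fall there is part of the choice. The ranking was not repeated without those arrays.

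PLK3 was most like GPN2, a GTPase (0.884), THSD1 (0.868) and CSN2, beta-casein (0.861). Among the members, PLK1 and PLK3 had a coefficient of -0.689, PLK1 and PLK2 of 0.346 and PLK2 and PLK3 of -0.186. Without the arrays at 4 h of reoxygenation PLK1 and PLK2 had -0.088 and PLK1 and PLK3 had -0.666. PLK3 was listed at 597 to 874 over all arrays, and its small differences changed sign with the scaling in several comparisons. The part of array centring in its coefficients was not tested.

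**Figure D4:**
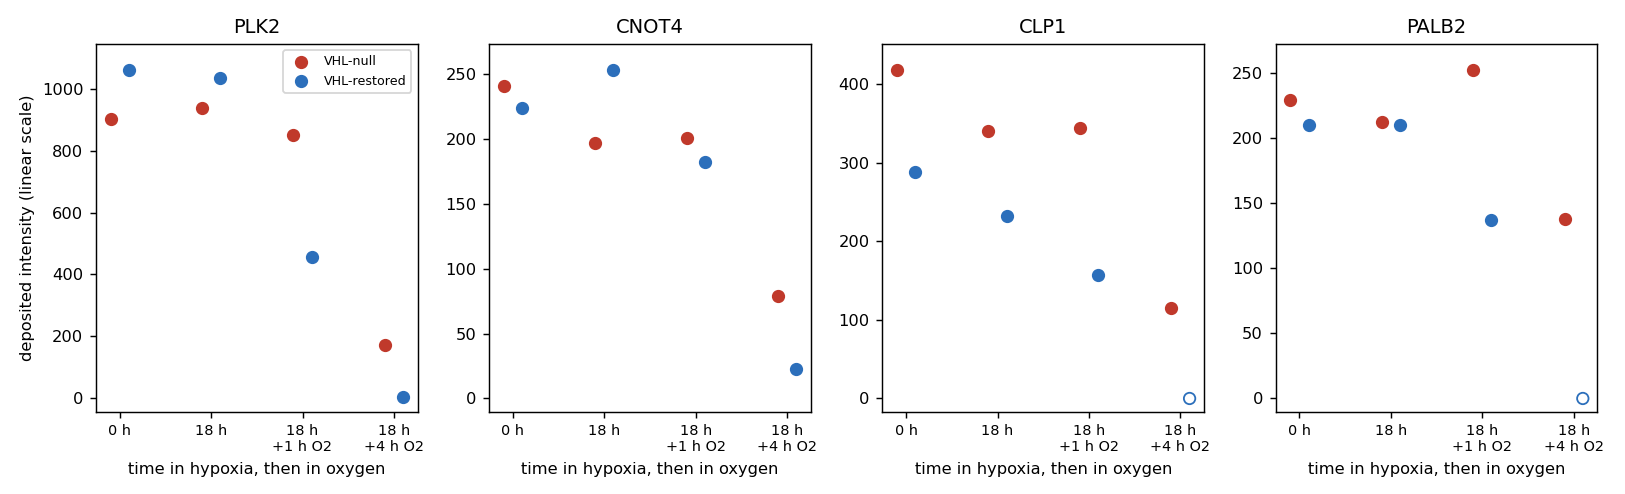
Deposited intensity (linear scale) of PLK2 and the 3 genes most like it on the set 2 RCC4 arrays at 0 h, 18 h of hypoxia and 1 h and 4 h of reoxygenation, with 1 array per point, VHL-null left of VHL-restored; open points are null entries drawn at 0. PLK2 was 174 and 6 at 4 h of reoxygenation against 938 and 1033 at 18 h, and CNOT4 was 79 and 23 against 197 and 253.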

How the data were processed

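The deposited values are linear intensity in whole numbers, 1 array per RNA sample, made and scaled by the authors; the array software, the scaling and the meaning of a null entry are not given in the sources used here. The labels name the Affymetrix GeneChip protocol. Of 35356 probe sets 16905 had 1 symbol, 573 had several and 17878 had none in the platform annotation. Null entries were taken as 0, values were analysed as log2(value + 16), the brightest probe set stood for each gene, and arrays were centred on their median, since array medians spanned 0.903 on the log2 scale. The upper 60% of 12690 genes by mean were tested.

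Two-sided tests came from limma 3.58.1 (R 4.3.3). The adjusted p is the Benjamini-Hochberg value over 7614 genes, called under 0.05. The 8 RCC4 arrays at 18 h and 0 h had a mean per group, the 20 RCC4 arrays terms for genotype, state and array set, and the other fits a block for background or for line and time. A p-value reflects the spread of these arrays alone, which may be technical, and where genotypes or times stand in for replicates it reflects repeatability over them. Replicate differences correlated across genes between groups at 0.794 to 0.916 over 6 pairs of groups, so the numbers pair the samples, but the 2 replicates also lie in different array sets. The scripts were tested on simulated data. The precision is limited by the number of arrays. By rule the text names the 3 tested genes most like each member and up to 4 genes of a list with the smallest p in a comparison. Alternatives changed the pseudocount, filter, centring, probe set rule, array set and arrays used. BNIP3, CCNB1 in H1299 and the hypoxia genes were chosen after their values were seen. Members and lists were chosen with earlier results of these data known.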

Additional observations from a re-analysis of the deposited data

Results flagged for a closer look

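In array set 2, PLK1 at 1 h of reoxygenation moved in opposite directions in the 2 RCC4 genotypes, by -1.30 in VHL-null and 0.36 in VHL-restored cells from 18 h, a gap of -1.66 that was not tested because each side is 1 array against 1. PLK1 also moved in opposite directions between the H1299 backgrounds at 24 h, with p53-null minus p53 wild type at -2.73, again untested and on the libraries whose hypoxia genes go against their labels. The p53-null minus p53 wild-type difference in PLK2 was 0.85 in HCT116 and -0.36 in H1299. The gap of 1.21 (SE 0.278, HCT116 at 3 of 3 times higher, H1299 at both times lower) had an unadjusted limma p of 0.00597 and an adjusted p of 0.999, so it did not pass the correction. PLK2 in HCT116 was listed at 0 to 23, near or below the pseudocount of 16, and the gap was 2.06, 1.21 and 0.56 with pseudocounts of 4, 16 and 64, so its size is set by that choice.

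PLK3 had 3 small gaps of opposite sign, each untested and on single arrays. VHL-null minus VHL-restored was 0.21 at 1 h and -0.17 at 4 h of reoxygenation, both from 18 h in array set 2. The 24 h change in H1299 was 0.23 higher in p53-null than in the libraries labelled p53 wild type.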

How the results depend on the processing

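With the replicate number as a block the PLK1 difference at 18 h, -1.09 in VHL-null and -0.956 in VHL-restored RCC4, was called (limma adjusted p = 0.000226 and 8.18e-05), as was PLK2 in VHL-null against VHL-restored at 0 h (-0.355, adjusted p = 0.0325); the block changed no other call on a member. PLK1 at 1 h of hypoxia was not called in array set 2 alone (-2.061, adjusted p = 0.0555), at 18 h over 20 arrays it was called with a pseudocount of 64 (-0.823, adjusted p = 0.0387), and at 4 h of reoxygenation against 18 h it was called with no centring (-1.697, adjusted p = 0.0187). PLK1 at 4 h of reoxygenation against 0 h was -1.953 without the VHL-restored array, with 1 array left and no test given. At 24 h PLK1 was called in HCT116 alone (-1.424) and without both libraries labelled H1299 p53 wild type (-1.407), and over 12 h and 24 h in HCT116 it was not called with no filter (-1.148, adjusted p = 0.0892). In H1299 alone, with no test, the p53 by hypoxia gap was -2.726 for PLK1 and 0.170 for PLK2 (0.272 and -0.325 in HCT116 alone, added after the data were seen), and the PLK2 p53 difference was -0.361. Leaving out 1 background, late hypoxia for PLK1 ran from -1.253 to -0.670 and was called only without H1299 p53 wild type. Leaving out 1 replicate, PLK2 at 4 h of reoxygenation against 18 h ran from -3.906 to -3.614 and PLK1 at 1 h from -2.263 to -2.063, and all of these were called. Over all its alternatives PLK2 at 4 h of reoxygenation against 18 h ran from -4.334 to -2.249. The -2.249 is without the VHL-restored array, with 1 array left and no test given, and the others were called. The likeness of CNOT4, CLP1 and PALB2 to PLK2 was lower without the arrays at 4 h of reoxygenation, added after the data were seen, as were the settings without named libraries. Of 898 values of the members under the alternatives 808 kept direction and side of the threshold (for untested values, stayed within the error), and 74 changed sign, 2 for PLK1, 20 for PLK2 and 52 for PLK3, with 0 of the 74 called before or after. PLK3 with null entries left missing was -0.063 at 18 h in VHL-null RCC4, 0.062 between VHL genotypes at 0 h, -0.057 at 2 h, -0.028 at 18 h over 20 arrays, -0.043 and -0.030 at 1 h and 4 h of reoxygenation against 18 h, -0.071 and -0.058 against 0 h, and -0.039 late. With no centring PLK3 was -0.026 at 18 h in VHL-null, 0.046 between VHL genotypes at 0 h, -0.013 at 2 h, -0.049 and -0.118 at 1 h and 4 h of reoxygenation against 18 h, -0.047 and -0.116 against 0 h, and -0.004 late. With quantile normalization PLK3 was -0.044 at 18 h in VHL-null, 0.035 between VHL genotypes at 0 h, -0.015 at 2 h, -0.014 at 18 h over 20 arrays, -0.025 and -0.039 at 1 h of reoxygenation against 18 h and 0 h, and -0.009 late. With no array set term PLK3 was 0.161 at 6 h, -0.139 and -0.062 at 1 h and 4 h of reoxygenation against 18 h, and -0.094 and -0.017 against 0 h, and PLK2 was -0.257 at 2 h and -0.210 at 6 h. PLK3 was -0.006 at 1 h of reoxygenation against 18 h in set 2 alone, -0.015 at 4 h without the VHL-restored array, -0.021 late with RCC4 replicate 1 only, 0.008 at 6 h with the mean over probe sets, and at 24 h 0.006 with that mean, 0.000 with a pseudocount of 4 and 0.034 without both libraries labelled H1299 p53 wild type. PLK2 was -0.037 at 2 h and -0.001 at 4 h with null entries left missing and -0.004 at 2 h with quantile normalization, and its p53 by hypoxia gap was 0.007 with a pseudocount of 64. Leaving out 1 replicate, values that changed sign ran for PLK2 from -0.227 to 0.447 (18 h, VHL-restored), -0.156 to 0.463 (18 h, VHL-null), -0.294 to 0.381 (VHL by hypoxia), -0.136 to 0.195 (2 h), -0.013 to 0.372 (4 h) and -0.089 to 0.242 (6 h), for PLK1 from -0.317 to 0.047 (VHL by hypoxia), and for PLK3 from -0.092 to 0.250 (18 h, VHL-restored), -0.298 to 0.320 (18 h, VHL-null), -0.377 to 0.241 (VHL by hypoxia), -0.320 to 0.299 and -0.221 to 0.064 (VHL at 0 h and 18 h), -0.005 to 0.103 (2 h), -0.051 to 0.056 (6 h), -0.007 to 0.099 (18 h over 20 arrays) and -0.007 to 0.039 (late). The cause was not tested. Counts of called genes moved more: at 4 h of reoxygenation against 18 h from 61 with no array set term to 2326 with no centring (200 as reported), at 1 h from 104 to 1155 (275), at 4 h from 451 to 1551 (810), and in HCT116 from 1 with no filter to 396 with a pseudocount of 64 (176). Without the VHL-restored 0 h replicate 2 array 76 genes were called at 1 h, 365 at 4 h and 280 at 4 h of reoxygenation against 0 h (834). Without the VHL-restored 18 h replicate 1 array 74 were called at 18 h over 20 arrays (225), and without the VHL-null 18 h replicate 2 array 88 at 4 h of reoxygenation against 18 h. PLK2 between the VHL genotypes at 0 h ran from -0.692 without the VHL-restored replicate 1 array to -0.018 without its replicate 2 array, with no block. At 18 h in VHL-restored RCC4 3 genes were called without the block and 501 with it. Single arrays at 1, 2, 4 and 6 h and at reoxygenation limit what can be told apart there.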
